A study of Caenorhabditis elegans with 12 samples.

Results

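Chromatin precipitated with an antibody against histone H4 acetylated at lysine 5 (H4K5ac) was set directly against chromatin precipitated with an antibody against the same histone acetylated at lysine 8 (H4K8ac), gene by gene. The comparison took every gene listed in the tables of both marks, which was 3750 genes of the 7553 listed in either table. The H4K5ac table held 5632 genes and the H4K8ac table held 5671, so 1882 and 1921 genes stood in 1 table only and could not be compared. The 12 samples were 3 H4K5ac immunoprecipitates (IP), 3 H4K8ac IPs, and 3 input libraries (chromatin sequenced without precipitation) for each mark. Every sample came from whole adult worms of Bristol N2, the wild-type laboratory strain of Caenorhabditis elegans, fed Escherichia coli OP50 at 20 °C. No sample carried a mutation or a treatment, and the antibody was the only difference between the IP groups that the labels named. The labels do not say whether the IPs of both marks came from the same chromatin. A difference of preparation therefore cannot be told apart from a difference of the mark. The title of the series asks about histone deacetylation and lipid metabolism through these H4 lysines. Replicate numbers are given, with nothing on whether each stands for its own culture, so p-values measure the spread between these libraries, which may be technical.

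Lysines 5 and 8 lie close together on the flexible tail of H4 that protrudes from the nucleosome. Acetyltransferases add the acetyl group, deacetylases and sirtuins remove it, and bromodomain proteins bind it. Both marks are known from open chromatin at the starts of active genes; in yeast and human cells lysine 5 is also acetylated on newly made H4, before it is placed on DNA, by the enzyme HAT1. The worm has an X chromosome that the germ line keeps largely silent, and in hermaphrodites both X copies are turned down in the body by dosage compensation, a process that involves H4 modification. An adult hermaphrodite is a mixture of germ line and body tissues, and levels in whole worms cannot separate a change in the share of a tissue from a change of the mark within it.

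The deposited value is 1 estimated read count per gene and library. Over the full tables these summed to between 8210104 and 9156392 in the H4K5ac IPs, to between 7599959 and 9136344 in the H4K8ac IPs, and to between 5460429 and 8911486 in the inputs. Levels below are in CPM, counts scaled to a common library size over the 3750 genes. The counts looked as if taken around a gene's start and divided between genes whose start windows meet, which was not tested. Genes with close neighbours are therefore uncertain. Below, the window of a gene is the 2 kb to either side of its start. A neighbour is any other gene whose annotated span meets that window, wherever its own start lies. Genes that lie just outside the window are not counted. Neighbours are named below for some genes only. A gene described without a named neighbour may still share its window, as rsp-3 does with elpc-2 and spin-4, and elpc-3 with clec-224 and usip-1. The regions that the tables list first for a gene overlapped between the marks by at least 1 bp in 3411 of the 3750 genes (91%), with median widths of 4399 bp for H4K5ac and 4799 bp for H4K8ac.

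The IP libraries were not equally strong. For each gene a shared enrichment was taken, the mean log2 CPM of all 6 IPs minus that of all 6 inputs, and each library's own fold over input was fitted to it with a line. A slope of 1 is the average IP, a steeper slope means that enriched genes stand higher and depleted genes lower in that library, and an input has a slope near 0. The slopes of H4K5ac IPs 1, 2 and 3 were 1.43, 1.12 and 0.923, and those of H4K8ac IPs 1, 2 and 3 were 1.03, 0.627 and 0.87. H4K5ac IP 1 was the strongest library and H4K8ac IP 2 the weakest, and the marks overlapped. The mean slope was 1.16 ± 0.253 for H4K5ac and 0.842 ± 0.204 for H4K8ac (SD, n = 3 each). The difference of 0.315 gave an exact two-sided permutation p of 0.2, where 3 against 3 libraries cannot go below 0.1. The spread of the genes told the same: the SD of log2 IP over input was 0.481, 0.368 and 0.303 in the H4K5ac IPs, against 0.343, 0.223 and 0.287 in the H4K8ac IPs (exact two-sided permutation p = 0.2). Among the inputs, H4K5ac input 1 leaned towards the IPs with a slope of 0.11, while the slopes of the other 5 lay between -0.049 and -0.0046.

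**Figure D1:**
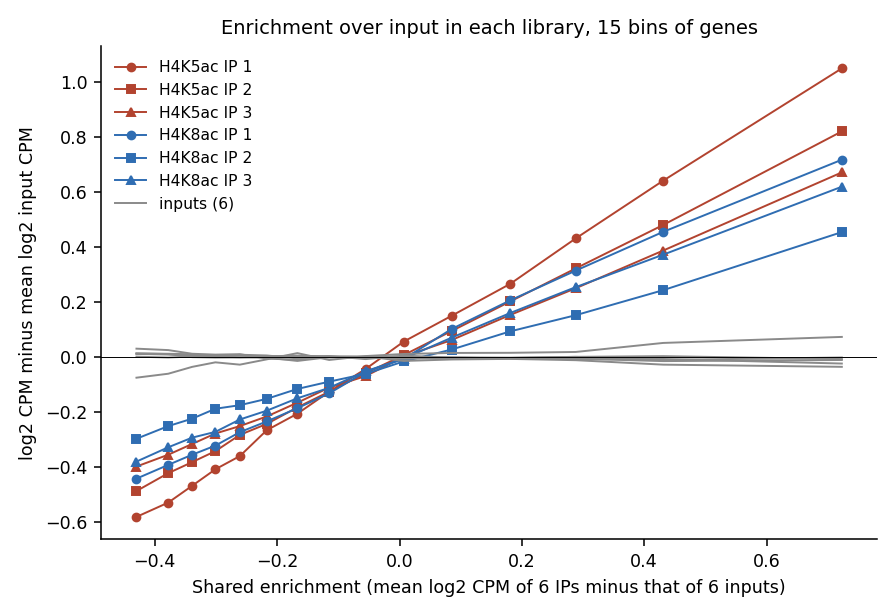
Mean log2 CPM of each IP library minus the mean log2 CPM of the inputs (vertical axis) for 15 bins of genes ordered by shared enrichment (horizontal axis). H4K5ac IPs are red, H4K8ac IPs blue and the 6 inputs grey, each minus the same input mean. The line of H4K5ac IP 1, with a slope of 1.43, is the steepest and that of H4K8ac IP 2, with a slope of 0.627, the flattest, with the other 4 IPs between them.

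Taken as sequenced, with all 6 IPs and no block, the marks differed at no gene past the threshold of edgeR. edgeR's quasi-likelihood test on the 6 IPs called 0 of 3750 genes (0%) in either direction at a Benjamini-Hochberg adjusted p under 0.05. The smallest adjusted p was 0.107, and 420 genes with H4K5ac higher and 307 with H4K8ac higher had an unadjusted p under 0.05. DESeq2 on the same counts called 193 and 128 genes, edgeR without H4K5ac IP 3 called 343 and 179, and edgeR with the replicate number as a block called 237 and 133. The log2 ratios of H4K5ac over H4K8ac ran from -0.41 to 0.58 and were larger where shared enrichment was larger (Pearson correlation 0.647 across genes, which share the same libraries and are not independent replicates). The largest ratios belonged to genes with a strong signal in both marks: Y111B2A.12 had a ratio of 0.58, the splicing factor gene rsp-3 0.57 and taf-4, a subunit gene of the general transcription factor TFIID, 0.55 (Y111B2A.12 and taf-4 were chosen after their values were seen; adjusted p of edgeR at least 0.107 for each). The H4K5ac and H4K8ac values did not overlap in 441 genes with H4K5ac higher (11.8%) and in 484 genes with H4K8ac higher (12.9%).

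The ratios of the genes with the highest shared enrichment changed most with the adjustment for strength. The 3 highest were R107.5, the Hsp70 chaperone gene hsp-1, and the non-coding gene M04B2.10. For hsp-1 the CPM were 383, 280 and 241 in the H4K5ac IPs, against 251, 199 and 252 in the H4K8ac IPs and between 100.3 and 111.3 in the 6 inputs. H4K5ac IP 1 was far above the other libraries, H4K8ac IP 2 was the lowest, and the groups overlapped. The unadjusted log2 ratio of hsp-1 was 0.36 ± 0.14 (SE, adjusted p of edgeR 0.181). After each library had been brought to the average slope, the values were 258, 249 and 259 CPM in the H4K5ac IPs, against 244, 282 and 285 CPM in the H4K8ac IPs. The adjusted ratio of hsp-1 was -0.08 ± 0.07 (SE, adjusted p of edgeR 0.585), with the sign turned and the groups still overlapping. R107.5 went likewise, with ratios of 0.33 unadjusted and -0.19 adjusted, as did M04B2.10, with 0.34 unadjusted and -0.08 adjusted (adjusted p of edgeR 0.165 and 0.524 after adjustment). The sign depended on the method: with cyclic loess of the IPs the ratios of hsp-1 and M04B2.10 were 0.40 and 0.38, and with quantile normalization 0.33 and 0.31.

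Once the slope of each IP had been taken out, the ratio no longer followed shared enrichment (correlation 0.0014). The slopes were fitted to these same genes, so this follows from the adjustment and is no check of it. The common dispersion of the fit was 0.00346, against 0.00613 before, a fall that the fitted slopes also favour. In this adjusted comparison edgeR's quasi-likelihood test called 19 genes with H4K5ac higher (0.507% of 3750) and 16 genes with H4K8ac higher (0.427%). These are small and borderline differences: the adjusted p of the called genes ran from 0.0362 to 0.0497, and the ratios of all genes from -0.38 to 0.51 on the log2 scale, with a median of 0.0017. In all 35 called genes the groups did not overlap, before adjustment as well as after it. The choice of genes by these same values favours this, so it is no separate support. Over all genes, the adjusted values did not overlap in 463 genes with H4K5ac higher (12.3%) and 484 with H4K8ac higher (12.9%). The inputs, compared in the same way, gave 0 calls with edgeR and with DESeq2, 341 and 309 genes at an unadjusted p under 0.05, and 413 genes (11%) and 410 genes (10.9%) without overlap. The replicate block called 119 and 81 genes between the inputs, and the fit without H4K5ac input 3 called 69 and 50.

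The calls rested on most of the libraries. They ended, with 0 and 0 genes called, without H4K5ac IP 2 and without each single H4K8ac IP, and also with 1 slope per mark, with cyclic loess or quantile normalization of the IPs, and when the ratio of the inputs was subtracted. With the inputs subtracted, the ratios of the 19 genes still ran from 0.19 to 0.53 (median 0.39, against 0.35 before) and those of the 16 genes from -0.43 to -0.19 (median -0.29, against -0.32 before), at adjusted p of edgeR from 0.0531 to 0.318. Without H4K5ac IP 1 there were 24 and 28 calls (H4K5ac higher and H4K8ac higher) and without H4K5ac IP 3 there were 146 and 86. Without the strongest and the weakest library together, H4K5ac IP 1 and H4K8ac IP 2, there were 186 and 255, and all 35 genes were among them. The split of 19 to 16 became 19 to 7 with the size factors of DESeq2 and 17 to 44 when libraries were scaled to the total of their whole table. None of the 35 ratios changed sign in any of these alternatives.

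**Figure D2:**
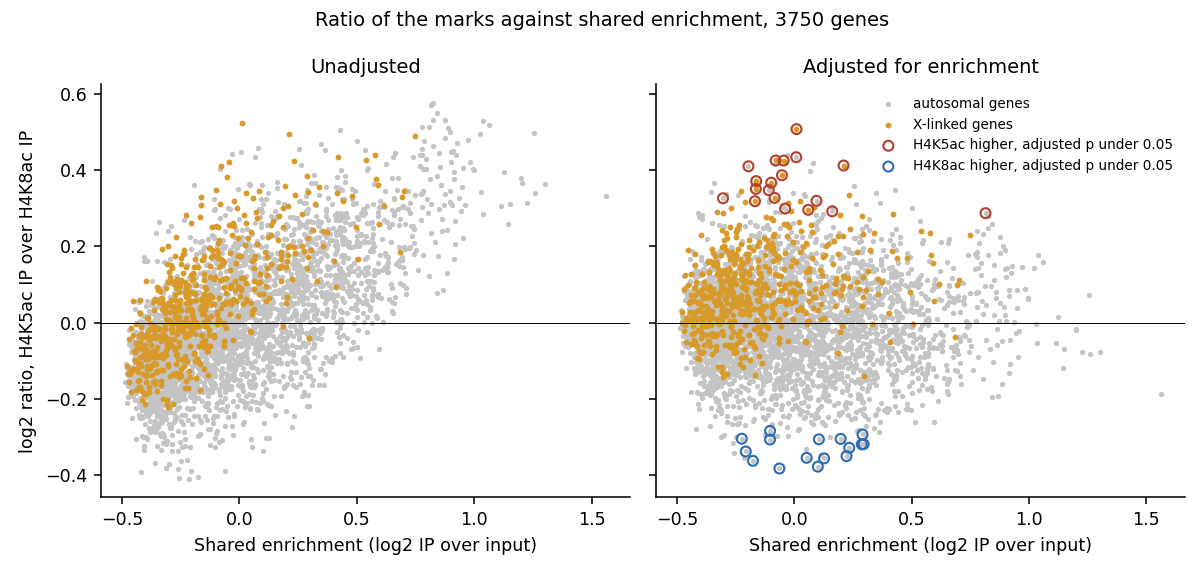
Log2 ratio of H4K5ac IP over H4K8ac IP (vertical axes) against shared enrichment (horizontal axes) for 3750 genes, unadjusted on the left and adjusted for the enrichment of each library on the right. Points are genes, X-linked ones in orange; red rings mark the 19 genes called with H4K5ac higher and blue rings the 16 called with H4K8ac higher. The rising cloud on the left, with a correlation of 0.647, is level on the right because the adjustment was fitted to these genes. The blue rings enclose no X-linked gene.

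Of the 19 genes with H4K5ac higher, 11 were X-linked, 1.91% of the 575 X-linked genes against 0.507% of all genes. Among the 19, asb-2, ndua-8 and idhb-1 make mitochondrial proteins. The share of such genes over all genes was not counted. The gene with the largest ratio was asb-2, whose product is subunit b of the mitochondrial ATP synthase. The H4K5ac region listed first for it, on chromosome X at 4468201 to 4471199 (WBcel235), was annotated by the authors as promoter. Its first H4K8ac region was annotated as intron, and the count is per gene, not per region. The adjusted CPM of asb-2 were 395, 322 and 304 in the H4K5ac IPs, against 236, 251 and 231 in the H4K8ac IPs. Every H4K5ac library lay above every H4K8ac library, and H4K5ac IP 1 stood highest. The log2 ratio was 0.51 ± 0.086 (SE, adjusted p of edgeR 0.0362), and 0.52 unadjusted. The inputs of asb-2 did not follow, at 265, 295 and 282 CPM for H4K5ac and 296, 286 and 272 CPM for H4K8ac. The neuropeptide receptor gene nmur-3 shares the start window of asb-2.

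For ndua-8, a subunit gene of respiratory complex I on chromosome III, the adjusted CPM were 282, 254 and 218 in the H4K5ac IPs, against 201, 178 and 179 in the H4K8ac IPs. Its log2 ratio was 0.43 ± 0.086 (SE, adjusted p of edgeR 0.0394). ndua-8 shares its window with 4 genes, ceh-44 among them. ceh-44, a homeobox gene, had a ratio of 0.32 with an adjusted p of edgeR of 0.0665 and cannot be taken as independent of ndua-8. idhb-1, for a subunit of the mitochondrial isocitrate dehydrogenase of the citric acid cycle, has no other gene in its window. Its adjusted CPM were 384, 342 and 317 in the H4K5ac IPs, against 273, 263 and 273 in the H4K8ac IPs, a log2 ratio of 0.37 ± 0.075 (SE, adjusted p of edgeR 0.0394). In each of these genes the groups stood apart and H4K5ac IP 1 was the highest library. idhb-1 lies outside the 8 largest ratios and was chosen after its values were seen, as were the other called genes described below that are beyond those 8 per direction or a gene list.

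alg-1, also X-linked, encodes an Argonaute protein that binds microRNAs. Its adjusted CPM were 212, 194 and 173 in the H4K5ac IPs, against 145, 138 and 148 in the H4K8ac IPs, with no overlap. The log2 ratio of alg-1 was 0.43 ± 0.076 (SE, adjusted p of edgeR 0.0362). The H4K5ac region listed first for it, on chromosome X at 13950401 to 13956199, was annotated by the authors as exon. C05G5.8, an X-linked non-coding gene whose window also holds the microRNA gene let-7, had adjusted CPM of 313, 276 and 254 in the H4K5ac IPs, against 208, 221 and 232 in the H4K8ac IPs. The ratio of C05G5.8 was 0.35 ± 0.078 (SE, adjusted p of edgeR 0.0409).

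The remaining X-linked genes with H4K5ac higher had mixed roles. zfp-3, a zinc finger gene with no neighbour in its window, had adjusted CPM of 476, 435 and 382 in the H4K5ac IPs, against 320, 323 and 330 in the H4K8ac IPs. Its log2 ratio of 0.41 ± 0.076 (SE, adjusted p of edgeR 0.0362) came from H4K8ac libraries that hardly differed and H4K5ac libraries that spread more widely. Ratios of 0.39 for the actin-binding twinfilin gene twf-2, 0.37 for the glutamate receptor gene glr-6, 0.32 for stau-1, whose product binds double-stranded RNA, and 0.30 for vha-15, a subunit gene of the vacuolar proton pump, also passed the test (edgeR, adjusted p 0.0394 to 0.043). The non-coding genes Y73B3A.23, with 0.43, and T14G11.6, with 0.33, completed the 11. In both, the inputs differed at an unadjusted p under 0.05 in edgeR, by 0.12 in the same direction for Y73B3A.23 and by -0.11, the opposite direction, for T14G11.6. This held for 4 of the 19 genes in all.

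The other 8 genes with H4K5ac higher were autosomal. swsn-3, a gene of the SWI/SNF nucleosome remodelling complex on chromosome III, had adjusted CPM of 202, 168 and 171 in the H4K5ac IPs, against 145, 120 and 143 in the H4K8ac IPs. Its log2 ratio was 0.41 ± 0.086 (SE, adjusted p of edgeR 0.0394), with the RNA helicase gene laf-1 in its window. dot-1.1, for a methyltransferase of histone H3, and zwl-1, for a kinetochore protein, share 1 window on chromosome I. Their ratios of 0.35 and 0.30 therefore cannot be taken as 2 separate observations (edgeR, adjusted p 0.0362 and 0.0394). rsp-3 was the called gene with the strongest shared enrichment, 0.82 on the log2 scale. Its ratio, 0.57 unadjusted, was 0.29 ± 0.062 after adjustment (SE, adjusted p of edgeR 0.0394), and its adjusted CPM were 652, 612 and 595 in the H4K5ac IPs, against 491, 543 and 491 in the H4K8ac IPs. The nuclear hormone receptor gene nhr-119, with 0.33, the talin gene tln-1, which links the cytoskeleton to cell adhesions, with 0.32, and pqn-87, with 0.29, were the others. tln-1 and pqn-87 were the other two genes whose inputs differed at that level, both in the same direction, by 0.14 and 0.10.

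The 16 genes with H4K8ac higher were all protein coding (0.54% of protein-coding genes, against 0.427% of all genes). None was X-linked (0% of X-linked genes), and none had an input difference at an unadjusted p under 0.05 in edgeR. The largest ratio belonged to C27D9.1 on chromosome II, with adjusted CPM of 157, 158 and 173 in the H4K5ac IPs, against 222, 207 and 207 in the H4K8ac IPs (log2 ratio -0.38 ± 0.067 SE, adjusted p of edgeR 0.0362). elpc-3, the acetyltransferase subunit gene of the Elongator complex, followed. The H4K5ac region listed first for it, on chromosome V at 12178801 to 12184399, was annotated as promoter. The adjusted CPM of elpc-3 were 170, 187 and 198 in the H4K5ac IPs, against 250, 229 and 242 in the H4K8ac IPs. The ratio of elpc-3 was -0.38 ± 0.071 (SE, adjusted p of edgeR 0.0362). Here the H4K5ac IPs were lower in all 3 libraries, with H4K5ac IP 1, the strongest precipitate, lowest of all. The inputs of elpc-3 were 189, 197 and 198 CPM for H4K5ac and 198, 196 and 201 CPM for H4K8ac.

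sun-1 encodes a protein of the nuclear envelope that meiotic chromosomes need to pair. Its adjusted CPM were 194, 191 and 199 in the H4K5ac IPs, against 258, 239 and 242 in the H4K8ac IPs. Both groups were tight, and the ratio was -0.34 ± 0.064 (SE, adjusted p of edgeR 0.0362). The adjusted CPM of exos-8, a gene of the RNA-degrading exosome, were 220, 249 and 239 in the H4K5ac IPs, against 299, 291 and 300 in the H4K8ac IPs (ratio -0.33 ± 0.066 SE, adjusted p of edgeR 0.0394). acly-2 encodes ATP citrate lyase, which makes the acetyl-CoA used for fatty acid synthesis and for histone acetylation, and no other gene lies in its window. It had adjusted CPM of 272, 276 and 267 in the H4K5ac IPs, against 332, 331 and 337 in the H4K8ac IPs. The groups of acly-2 stood well apart, with a log2 ratio of -0.29 ± 0.063 (SE, adjusted p of edgeR 0.0394) that was -0.19 before adjustment (adjusted p 0.206).

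The other genes with H4K8ac higher included thk-1, a thymidine kinase gene with a ratio of -0.31 that shares its window with the recombination gene rad-51, and xpo-7, an exportin gene with -0.32 whose window also meets the deacetylase gene hda-11. gln-6, for glutamine synthetase, had -0.31. Ratios of -0.36 for H31G24.3, whose window holds the cyclin gene cyb-2.2, -0.36 for D2096.12 and for Y19D10A.4, and -0.35 for pgap-1 completed the 8 largest (edgeR, adjusted p 0.0394 to 0.0497). In Y19D10A.4, H4K5ac IP 1 stood nearer to the H4K8ac IPs than the other H4K5ac IPs did: the adjusted CPM were 84.7, 69.6 and 70.6 in the H4K5ac IPs, against 102, 92.7 and 93.4 in the H4K8ac IPs. F56C9.6, C25H3.17, mans-4 and ZK688.9 had ratios between -0.32 and -0.28.

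**Figure D3:**
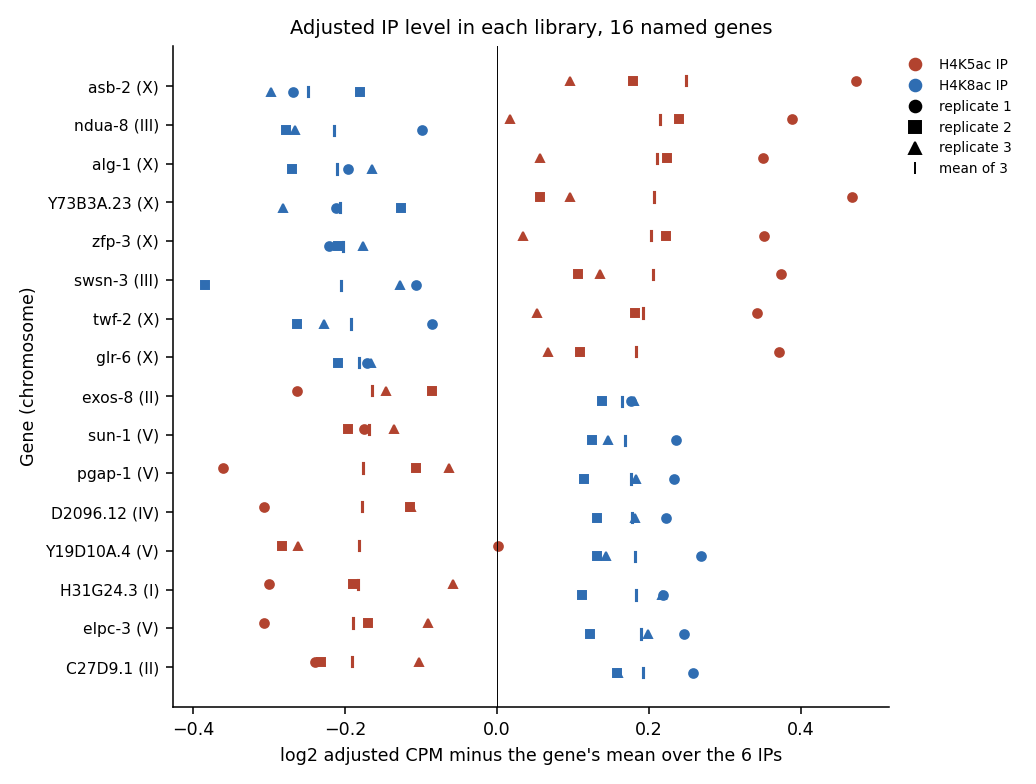
Adjusted level in each IP library for the 8 called genes with the largest ratios in each direction, as log2 adjusted CPM minus the mean of the gene over the 6 IPs (horizontal axis); rows are genes with their chromosome. Circles, squares and triangles are replicates 1, 2 and 3, red for H4K5ac IPs and blue for H4K8ac IPs, and vertical ticks are means of 3. In the upper 8 genes H4K5ac IP 1 lies farthest to the right, and in no gene do the red and blue points overlap.

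Where the genes lay on the chromosomes went with the ratio. Over the 575 X-linked genes the median adjusted log2 ratio was 0.076, against -0.012 over the 3175 autosomal genes, and 80% of X-linked genes had a positive ratio, against 45.1% of autosomal ones. The groups did not overlap, with H4K5ac higher, in 27.3% of X-linked genes and 9.64% of autosomal ones, and with H4K8ac higher in 0.696% and 15.1%. By library, the median of the X-linked genes relative to each gene's mean over the 6 IPs was 0.054, 0.067 and -0.0061 in the H4K5ac IPs, against -0.025, -0.071 and -0.022 in the H4K8ac IPs. H4K5ac IP 3 was the lowest of its group and still above every H4K8ac IP. In the inputs the X-linked genes went the other way, with a median ratio of -0.02; the same library medians were -0.037, 0.0015 and 0.0019 for the H4K5ac inputs and 0.016, 0.012 and 0.0036 for the H4K8ac inputs.

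X-linked genes had less signal than autosomal genes in both marks, with a median shared enrichment of -0.22 on the log2 scale, against -0.086, and their median ratio before adjustment was 0.034. Among genes above the median of shared enrichment, the 185 X-linked ones had a median adjusted ratio of 0.108, against -0.013 in 1690 autosomal ones. Below it, the 390 X-linked genes had 0.056, against -0.012 in 1485 autosomal ones. The median of the X-linked genes stayed positive in every alternative, between 0.043 and 0.10. It was lowest with each library scaled to the total of its whole table, where the median of all genes was -0.03, and 0.049 without H4K5ac IP 1 and H4K8ac IP 2.

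On the autosomes the ratio differed between the middle and the ends. A gene was counted to the middle when its start lay nearer to the midpoint of the chromosome than to an end. The median adjusted log2 ratio was -0.062 over 1448 genes in autosome middles and 0.028 over 1714 genes nearer the ends. Each autosome was higher at its ends than in its middle, although the ends of II stayed below 0, at -0.011. All 8 called autosomal genes with H4K5ac higher lay nearer the ends, 0.467% of the genes there against 0.507% of all genes. Of the 16 genes called with H4K8ac higher, 15 lay in the middles, 1.04% of the genes there against 0.427% of all genes. The inputs differed in the same way and by a similar amount, with a median ratio of -0.04 in autosome middles and 0.042 nearer the ends. With each gene's input ratio subtracted from its adjusted ratio, the medians were -0.031 in autosome middles and -0.012 nearer the ends, and those on X were 0.081 in the middle and 0.127 nearer the ends. The X chromosome shared the order but not the sign, with 0.056 over 311 genes in its middle and 0.10 over 263 genes nearer its ends, against input ratios of -0.027 and -0.0095. Of the single autosomes, II and V had the lowest medians, at -0.038 and -0.031. The 6 calls on V were all for H4K8ac, 1.01% of its genes against 0.427% of all genes.

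**Figure D4:**
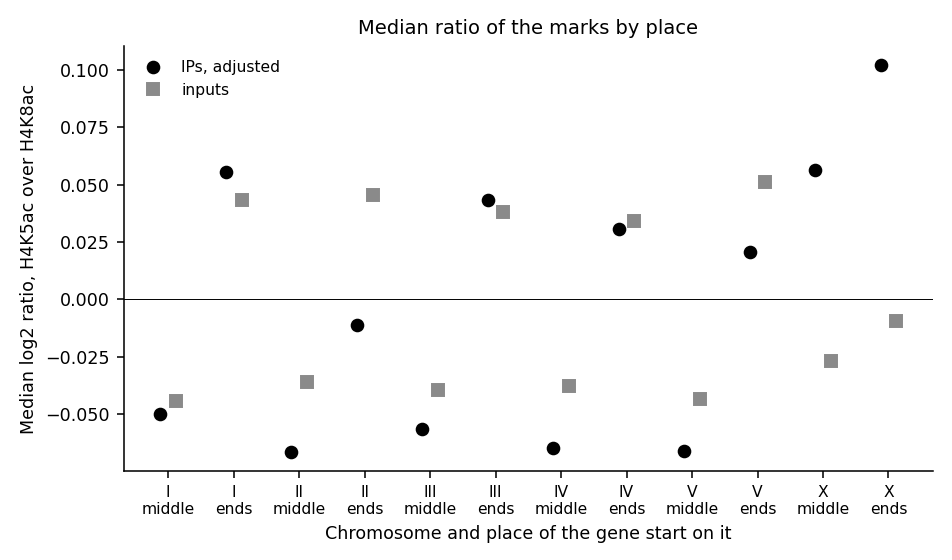
Median log2 ratio of H4K5ac over H4K8ac (vertical axis) by chromosome and by place on it (horizontal axis, middle or ends), adjusted IPs as black circles and inputs as grey squares. In the middles of the 5 autosomes circles and squares both lie below 0; on X the circles lie at 0.056 and 0.10 while the squares lie below 0.

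The 30 gene lists were read against all genes: 0.507% and 0.427% called, 12.3% and 12.9% without overlap (H4K5ac higher and H4K8ac higher), and a median of 0.0017. In autosome middles, 24.9% of all genes were without overlap and H4K8ac higher. Of the writers and readers of histone acetylation, 8 genes were measured and none was called. Their median ratio was -0.015. hat-1, the worm counterpart of HAT1, had adjusted CPM of 361, 348 and 325 in the H4K5ac IPs, against 323, 317 and 309 in the H4K8ac IPs. The groups stood narrowly apart (ratio 0.12, adjusted p of edgeR 0.328), as did those of bet-1, a double bromodomain gene, with 0.092, and ssl-1, a remodeller of the SWR1 type, with 0.10. mys-1 and mys-2, of the MYST acetyltransferase family, were at -0.026 and -0.0031, and lin-49, a bromodomain gene, at -0.15 (adjusted p 0.262), with an input ratio of -0.18 and 0.031 once that was subtracted. Among 10 genes of deacetylases, sirtuins and their complexes the median was -0.019, with an input median of -0.068, and none was called. spr-4, a zinc finger gene, lay lowest at -0.27 (adjusted p of edgeR 0.0804), with adjusted CPM of 294, 372 and 350 in the H4K5ac IPs, against 405, 402 and 417 in the H4K8ac IPs. let-418, for a Mi-2 remodeller of the NuRD complex, was at -0.13 and the sirtuin gene sir-2.2 at 0.15.

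No gene of the lipid lists was called; the called ATP citrate lyase gene acly-2, at -0.29, is in none of them. The 10 measured genes that make fatty acids and triglycerides had a median of -0.076, with the groups apart in 1 gene for H4K5ac and 3 for H4K8ac, against 12.3% and 12.9% of all genes. The desaturase gene fat-4 had adjusted CPM of 338, 371 and 384 in the H4K5ac IPs, against 471, 402 and 456 in the H4K8ac IPs (ratio -0.28, adjusted p of edgeR 0.0594). hpo-8 followed at -0.26, while fasn-1, for fatty acid synthase, was at -0.079 and sbp-1, for the lipid regulator SREBP, at 0.067. The 12 genes of lipolysis and beta-oxidation had a median of -0.0073. There hosl-1, the X-linked hormone-sensitive lipase gene, had adjusted CPM of 367, 347 and 337 in the H4K5ac IPs, against 295, 281 and 300 in the H4K8ac IPs. All 3 H4K5ac values of hosl-1 were above the H4K8ac values (ratio 0.26, adjusted p of edgeR 0.0594), with inputs at -0.049. The nuclear receptor genes nhr-80, at 0.20, and nhr-49, at -0.029, which regulate fat metabolism, did not pass either. In the 11 genes of lipid storage and transport the median was -0.039, with the lipid droplet gene plin-1 at -0.19 and the yolk protein genes vit-1, vit-2 and vit-6 at -0.11, 0.043 and -0.039. Of the insulin-like signalling and stress genes, 8 were measured with a median of 0.056, among them the receptor gene daf-2 at 0.077, the transcription factor gene daf-16 at -0.082 and the kinase gene pdk-1 on X at 0.21.

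Genes of the germ line and the oocyte had the lowest median of the lists. Over 13 measured genes it was -0.171, with 2 positive ratios, against an input median of 0.0093. By library, the list median relative to each gene's mean over the 6 IPs was -0.13, -0.12 and -0.034 in the H4K5ac IPs, against 0.12, 0.094 and 0.043 in the H4K8ac IPs. None of the 13 was called, and in 7 the groups did not overlap, all with H4K8ac higher, against 12.9% of all genes. All 7 were among the members in autosome middles, where the share was 24.9% of all genes. rme-2, the yolk receptor gene of oocytes, had adjusted CPM of 263, 262 and 259 in the H4K5ac IPs, against 313, 306 and 321 in the H4K8ac IPs (ratio -0.26, adjusted p of edgeR 0.0594). egg-2, for an oocyte surface protein needed at fertilization, had 264, 298 and 333 CPM in the H4K5ac IPs, against 365, 371 and 364 CPM in the H4K8ac IPs (ratio -0.30, adjusted p 0.0638). fbf-1, for an RNA-binding protein of germline stem cells, was at -0.24, the eggshell gene cpg-2 at -0.24, gld-2, for a poly(A) polymerase, at -0.21, and the germ granule gene pgl-2 at -0.20. Of the 13 genes 9 lay in autosome middles, with a median of -0.21 against -0.062 for all genes there, and 4 nearer the ends, with -0.073 against 0.028. The germline median was -0.12 without H4K5ac IP 2, and -0.091 over the 4 genes with no neighbour in their window. The 10 sperm genes, in contrast, had a median of 0.034, with an input median of 0.038.

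Body tissue lists had medians on both sides of 0. Of 10 muscle genes 7 had positive ratios, with a median of 0.084, but 5 of the 10 are X-linked; over the other 5 the median was 0.078. act-4, an X-linked actin gene, had adjusted CPM of 421, 415 and 388 in the H4K5ac IPs, against 317, 325 and 368 in the H4K8ac IPs (ratio 0.28, adjusted p of edgeR 0.0594). The 9 neuronal genes, none on X, had a median of 0.077 with 8 positive. The groups were apart in 1 of them, cha-1, for the enzyme that makes acetylcholine, at 0.093. The neuronal median was 0.022 without H4K5ac IP 1 and H4K8ac IP 2, and 0.03 with quantile normalization. The 6 intestinal genes had a median of -0.058, led by asp-5, an aspartyl protease gene, at -0.17. No gene of these 3 lists was called.

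Mitochondrial genes had the highest median of the lists. Over the 24 genes of mitochondrial respiration and the mitochondrial ribosome it was 0.14, with 21 positive and an input median of 0.010. The groups did not overlap in 11 genes with H4K5ac higher and in 1, mrps-5 at -0.25, with H4K8ac higher, against 12.3% and 12.9% of all genes. With H4K5ac higher they were apart in 6 of the 14 members nearer the autosome ends, against 14% of all genes there. Without the X-linked members they were apart in 7 of 20, against 9.64% of autosomal genes. On X the share was 27.3% of all genes. asb-2 was the only call in the list; the called complex I gene ndua-8 lies outside it. The list medians by library were 0.13, 0.037 and 0.015 in the H4K5ac IPs, against -0.041, -0.071 and -0.048 in the H4K8ac IPs. H4K5ac IP 1 stood far above the others: mrpl-38 had 379, 273 and 252 adjusted CPM in the H4K5ac IPs, against 260, 211 and 243 in the H4K8ac IPs, and its ratio of 0.34 did not pass (adjusted p of edgeR 0.129). ucr-2.1, a complex III gene on X, was more even, with 362, 348 and 351 CPM in the H4K5ac IPs, against 288, 305 and 294 CPM in the H4K8ac IPs (ratio 0.26, adjusted p 0.0594). mrpl-40 was at 0.21, sdha-1, of complex II and X-linked, at 0.18, atp-1, of the ATP synthase, at 0.18, and cox-4, of complex IV, at 0.14. Nearer the autosome ends, 14 members had a median of 0.14, with inputs at 0.052; in autosome middles 6 had 0.03, with inputs at -0.053; and the 4 on X had 0.22. Without the 4 X-linked members the median was 0.12. It was 0.07 without H4K5ac IP 1 and H4K8ac IP 2.

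The 6 ribosomal protein genes had a median of 0.058, against 0.24 before adjustment, and the 18 translation factor and tRNA synthetase genes -0.062, against 0.13. In the translation list the groups were apart in 7 genes with H4K8ac higher, all 7 among the 11 in autosome middles, and in 2 with H4K5ac higher, against 12.9% and 12.3% of all genes and 24.9% with H4K8ac higher in autosome middles. The tRNA synthetase genes lars-2 and vars-1 were at -0.26 and -0.25, and ife-2, an X-linked gene for a cap-binding factor, at 0.29 (edgeR, adjusted p 0.0689, 0.0685 and 0.0594). The median was -0.046 over the 19 genes of the cell cycle and replication list, which was drawn by name, so members may act elsewhere. It was -0.010 over 12 splicing and RNA processing genes, where rsp-3 was the call, and 0.00052 over 4 proteasome genes. hcp-1, for a protein of the holocentric kinetochore, was lowest of the cell cycle genes at -0.27, with 329, 300 and 307 adjusted CPM in the H4K5ac IPs, against 373, 377 and 374 CPM in the H4K8ac IPs (adjusted p of edgeR 0.0594). The 5 core histone genes had a median of 0.026.

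Large gene families with little signal in either mark differed among themselves. The 22 C-type lectin genes, which encode secreted sugar-binding proteins, had a median of -0.10, with the groups apart in 7, all with H4K8ac higher (12.9% over all genes), and an input median of 0.03. Their median was -0.055 without H4K8ac IP 2, -0.05 without that library and H4K5ac IP 1, and -0.16 with quantile normalization. The 46 genes of the F-box, MATH and BATH list had a median of -0.062. Their groups were apart in 2 genes for H4K5ac and in 10 for H4K8ac (12.3% and 12.9% over all genes). This list was drawn by name and includes skr-1, skr-3 and btb-14, which are named for other families. btb-14 is among the 2 genes. The 16 genes of the chemoreceptor list had -0.053. That list was drawn by name and includes srf-3 and srp-7, which are not chemoreceptor genes. The 46 collagen genes were at 0.017, the 16 P450, UGT and GST genes at -0.015, the 12 homeobox and bHLH genes at -0.012, the 15 neuropeptide and receptor genes at -0.0076 and the 52 nuclear hormone receptor genes at -0.0023. nhr-119 was the one call among these families. It has no neighbour in its window, and its adjusted CPM were 298, 274 and 258 in the H4K5ac IPs, against 230, 216 and 216 in the H4K8ac IPs (ratio 0.33 ± 0.069 SE, adjusted p of edgeR 0.0394).

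Non-coding lists gave medians near that of all genes, at 0.016 over 49 genes of the tRNA list, 0.020 over 57 piRNA genes, 0.023 over 12 long intergenic RNA genes and 0.047 over 23 microRNA genes. The tRNA list was drawn by name, and the 41 genes annotated as tRNA had a median of 0.012. No member was called. Among the microRNA genes the 6 on X had a median of 0.15, against -0.0078 over the other 17. mir-34, one of the 6, had adjusted CPM of 476, 441 and 416 in the H4K5ac IPs, against 410, 363 and 359 in the H4K8ac IPs, apart by a narrow margin (ratio 0.24, adjusted p of edgeR 0.0871). It shares its window with gbb-1.

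**Figure D5:**
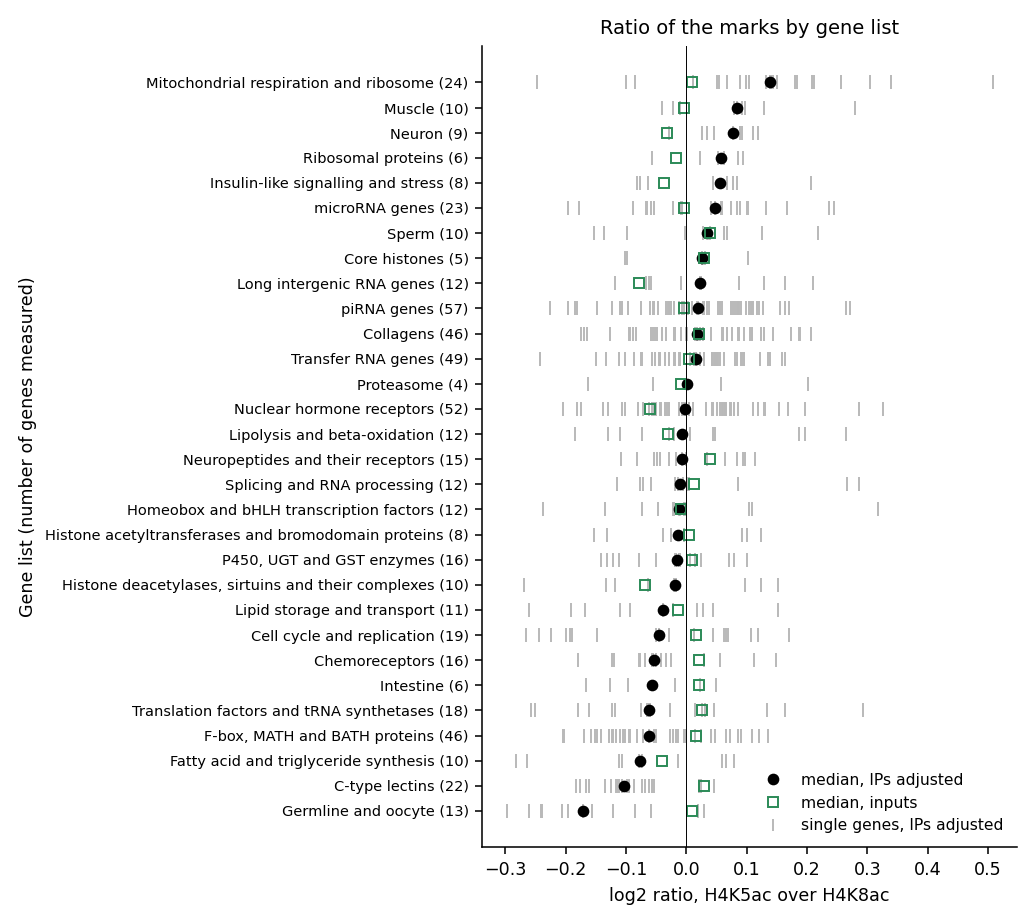
Adjusted log2 ratio of H4K5ac over H4K8ac (horizontal axis) for the measured members of 30 gene lists (rows, with the number of genes), ordered by median. Grey ticks are single genes, black circles list medians and open green squares the medians of the same genes in the inputs. The mitochondrial list lies highest at 0.14 and the germline list lowest at -0.171, while their input medians are 0.010 and 0.0093.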

How the data were processed

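H4K5ac and H4K8ac were measured by ChIP-seq on sheared chromatin (0.2 to 1 kb). Per the submitters' processing notes, the software was MACS2 2.1.0, Bowtie 1.1.2, bcl2fastq 2.17 and Trimmomatic 0.33, with hg38 and WBcel235 as builds, none with a role; coordinates matched gene positions in WBcel235 for 3735 of 3736 genes found there, and gene names came from the files and the RefSeq table of that build. The authors deposited estimated counts per gene, not normalized and repeated on each of the gene's regions; sources used here do not name the counter. The authors deposited the distance of each region to a transcription start as another column, used here only to check the tables. In the present work counts were rounded and each gene was used once. edgeR 4.0.16 (R 4.3.3, quasi-likelihood test, TMM, 6 IPs, 1 mean per mark) was run on all 3750 genes with Benjamini-Hochberg adjustment and called at 0.05; no gene fell to the count filter. For the adjusted comparison, log2 CPM (0.5 added to counts) of each IP minus the mean of the inputs was regressed on shared enrichment, and (slope minus 1) times the centred enrichment was entered as an offset; standard errors leave out the error of the slopes. The same fit of the inputs served as a check, and slopes were compared by an exact two-sided permutation test. Lists were described by counts and medians, with no test. The tables appear to hold regions chosen for enrichment, so ratios are relative to the typical listed gene.

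Total counts per library are in the Results; median standard errors of log2 ratios were 0.0848 unadjusted and 0.0691 adjusted. Named genes are the 8 largest called ratios in each direction, up to 2 called members per direction or else the member of lowest p of each list, the 3 genes of highest shared enrichment, and others said to be chosen after seeing values. The genes and all lists were chosen with earlier results of these data known. The scripts were tested on simulated data. DESeq2 1.42.0, limma 3.58.1, other scalings, other adjustments, other gene filters, single libraries left out and a block on replicate number were tried as alternatives. Replicates differed beyond counting noise, so none was a copy of another. This does not show whether they came from separate chromatin. The labels do not pair same-numbered H4K5ac and H4K8ac IPs, and these did not deviate together in all pairs. The numbers were therefore not taken as pairs in the main fit, although a shared origin is not excluded. Leaving H4K5ac input 1 out of the enrichment axis, leaving out the strongest and weakest IP, subtracting the input ratio after adjustment and setting slopes on autosomal genes were alternatives chosen after seeing the data.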

Additional observations from a re-analysis of the deposited data

How the results depend on the processing

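No called gene changed sign; hsp-1, M04B2.10, R107.5 and lin-49, none of them called, did in the settings given above or with quantile normalization. Calls are given as H4K5ac higher and H4K8ac higher. Without adjustment for enrichment (0 and 0), there were 193 and 128 with DESeq2, 237 and 133 with the replicate number as a block, 312 and 154 with all 12 samples in the fit, 1 and 0 over the 642 genes with no neighbour in their window, and 64 and 83 without H4K5ac IP 1 and H4K8ac IP 2; leaving out single IPs gave 0 to 343 and 0 to 179, the highest without H4K5ac IP 3. With adjustment (19 and 16), there were 80 and 91 with DESeq2, 148 and 133 with the replicate block, 248 and 172 with all 12 samples, 4 and 1 over the 642 genes, 186 and 255 without both named IPs, 7 with H4K8ac higher under DESeq2 size factors and 44 when scaled to whole-table totals; there were 0 and 0 with the input ratio subtracted, 1 slope per mark, cyclic loess and quantile normalization. Leaving out single IPs gave 0 to 146 and 0 to 86. For the inputs (0 and 0) the replicate block gave 119 and 81 calls, and leaving out single inputs gave 0 to 69 and 0 to 50, the highest without H4K5ac input 3. The cause of these shifts was not tested. Limma-voom, a lowess curve, each mark's own inputs, slopes on autosomal genes and the other filters stayed within 1.5 times of both main counts. Among these filters, dropping the count filter and keeping genes whose inputs did not differ removed none of the 3750 genes. Both of these repeat the main fit and say nothing on stability. Deviations of same-numbered IPs before adjustment correlated at 0.489, 0.0906 and -0.231, and those of IPs with unlike numbers at -0.551 to 0.593. These values include the unequal slopes of the libraries. They cannot show whether same-numbered IPs share chromatin, and so whether the block pairs related libraries. The slope difference kept its sign, at 0.188 to 0.425 without single IPs. Each of the 35 called genes lost its call in 8 to 13 of 25 to 27 alternatives, and of the values of 6 group medians 149 moved by less than the spread between libraries and 12 by more. The alternatives and the unmoved medians counted here include those repeats of the main fit. The median adjusted standard error was 0.0691 on the log2 scale.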

Other observations

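Genes listed for 1 mark only were not always without the other mark. Of the 1882 genes in the H4K5ac table alone, 1324 (70.4%) had a region that overlapped an H4K8ac region by at least 1 bp, and of the 1921 genes in the H4K8ac table alone, 1037 (54%) had a region that overlapped an H4K5ac region. Such a region is listed under another gene name for the other mark, and was not analysed here.

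By the authors' class of the H4K5ac region, 5 of 768 intronic genes were called with H4K5ac higher (0.651%, against 0.507% of all genes) and 0 with H4K8ac higher (0.427% of all genes). Of 735 exonic genes 5 (0.68%) and 9 (1.22%) were called; these counts are small and their difference was not tested. The medians were 0.015 for intronic and -0.013 for exonic regions, -0.0016 for 1349 promoter regions, -0.014 for 577 regions at transcription ends and 0.024 for 321 intergenic regions. By biotype, 2963 protein-coding genes had a median of -0.0021, 548 genes annotated as ncRNA 0.0065, 42 snoRNA genes 0.0062 and 24 pseudogenes 0.048, the last with an input median of 0.055.

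Genes with no other annotated gene near their start had a median of 0.026 over 642 genes, against -0.0039 over 2532 genes with 1 or 2 neighbours and -0.0078 over 562 with 3 or more. Input medians were -0.0066, 0.0032 and -0.0057. The share of genes with non-overlapping groups and H4K8ac higher was 5.76% with no neighbour and 14.7% with 1 or 2. Shared enrichment also differed, with medians of -0.18 and -0.10, and its part in the ratio was not tested beyond the adjustment.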
